A study of Mus musculus with 23 samples.

Results

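Shisal2b, Spon2, Sptssb, Sbspon, Nexmif and Hsd11b2 are 6 genes chosen for large differences among 2 resistant dose groups and vehicle-treated medulloblastomas. Not every gene differed in every comparison of these groups. They were selected on the measured values of the resistant and the untimed vehicle arrays, so their differences among those arrays are given as a description, with no test. They are 6 of 18194 genes with a single symbol on the array, and 12 of its 45101 probe sets carry their symbols. The tumours came from Ptch+/-HIC+/- mice, were dissociated and were grown under the skin of the right flank of nude (Harlan nu/nu) mice, hosts that lack mature T cells and keep other immune cells. All 23 arrays share this genotype and host. Resistant tumours had received NVP-LDE225 (sonidegib), an antagonist of Smoothened, at 160 mg/kg (3 arrays) or at 40 mg/kg (3 arrays), with no stated time since dosing. Sensitive tumours were collected at 4, 8, 24 and 48 h of treatment at 40 mg/kg (3 arrays per time). Vehicle was given to 2 tumours collected at 4 h and to 3 tumours with no stated time. The labels do not give the animals' ages, nor whether each replicate is another animal, nor whether the resistant tumours of a dose group descend from a single tumour. P-values therefore measure the spread between these samples, which may be technical. A source label says resistant on 6 of the 12 short-term arrays, against the description and the tumour status, and the description was followed.

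In the Hedgehog pathway, Ptch1 holds Smoothened inactive until a ligand binds, and active Smoothened lets Gli transcription factors switch on their targets. Loss of Ptch1 function leaves the pathway on and drives medulloblastoma from cerebellar granule neuron progenitors, which Smoothened antagonists arrest until resistance appears. The members belong to no common pathway. Hsd11b2 inactivates corticosterone and is made in granule neuron progenitors. Sptssb is a small subunit of serine palmitoyltransferase, the enzyme that opens sphingolipid synthesis. Spon2 (spondin 2) and Sbspon are secreted proteins with thrombospondin repeats. Nexmif is an X-linked protein of neurons needed for neurite extension and migration. Shisal2b is a membrane protein related to the shisa family.

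Promoter sequence was matched for 3 of the 6 members in RefSeq's table on GRCm38.p6, and all 3 are shown. The resistant groups did not overlap in any of them. Shisal2b was higher, and Sptssb and Nexmif lower, in the 160 mg/kg tumours. Each line gives the 250 bases that precede the start used in that table, read 5′ to 3′ on the minus strand, at chr13:104863894-104864143 for Shisal2b, chr3:69859895-69860144 for Sptssb and chrX:104201185-104201434 for Nexmif. The windows of Sptssb and Nexmif lie inside the span of their gene record, so the start used is not the outermost of the gene. Capitals mark matches to the motifs searched.
Shisal2b: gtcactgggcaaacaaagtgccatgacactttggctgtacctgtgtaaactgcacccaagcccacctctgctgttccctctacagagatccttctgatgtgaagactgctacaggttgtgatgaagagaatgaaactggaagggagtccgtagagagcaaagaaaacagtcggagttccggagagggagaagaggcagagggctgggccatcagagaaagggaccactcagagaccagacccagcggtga
Sptssb: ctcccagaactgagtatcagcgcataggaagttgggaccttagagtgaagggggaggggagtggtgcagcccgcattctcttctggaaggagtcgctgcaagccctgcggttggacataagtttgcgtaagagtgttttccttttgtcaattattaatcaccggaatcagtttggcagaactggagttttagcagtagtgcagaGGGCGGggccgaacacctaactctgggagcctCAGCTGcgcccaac
Nexmif: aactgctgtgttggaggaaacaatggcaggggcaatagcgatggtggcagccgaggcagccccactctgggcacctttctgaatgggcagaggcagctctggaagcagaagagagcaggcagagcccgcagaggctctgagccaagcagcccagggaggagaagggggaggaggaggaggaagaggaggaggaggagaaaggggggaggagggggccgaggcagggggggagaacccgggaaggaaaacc
The motifs, searched on both strands, were GACCACCCA (the Gli site), CAGCTG (an E-box) and GGGCGG (a GC box), which do not overlap each other in the matches found. Sptssb held CAGCTG 14 to 9 bases before the start and GGGCGG 46 to 41 bases before it. Neither Shisal2b nor Nexmif held any of the 3 motifs in this window. Of 32851 promoter windows of the same length, 0.225% held GACCACCCA, 13.0% held CAGCTG and 32.7% held GGGCGG, so the Sptssb matches are of common motifs. The windows were 52.8%, 53.2% and 63.6% G and C in Shisal2b, Sptssb and Nexmif.

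Values are linear signal intensities from MAS5, and log2 differences are of signal plus 16, which understates the change of genes with low signal. Across arrays the median signal was 33.9 to 46.7, the 40th percentile 18.7 to 28.6, the highest signal 13784 to 24678 and the log2 ratio of actin 3′ to 5′ signal 0.84 to 1.83. The small number of arrays limits the precision. Tests covered the 35066 probe sets with a signal over the 40th percentile of the array in 2 or more arrays, among them 11 of the 12 of the members. Each gene is described by the probe set that was brightest on average. Gli1, a standard readout of Hedgehog signalling, averaged 633 ± 60.9 in 160 mg/kg resistant tumours and 1165 ± 172 in 40 mg/kg resistant tumours, against 679 ± 42.2 in untimed vehicle tumours (SD, n = 3 each). In sensitive tumours treated for 48 h it averaged 12.3 ± 7.37 (SD, n = 3), against 608 ± 129 in 4 h vehicle tumours (SD, n = 2). Gli1 was not called between 40 mg/kg resistant and vehicle tumours (log2 difference 0.76, limma adjusted p = 0.17). Of 9 Hedgehog readouts tested, 0 were called higher and 2 lower there. Between the dose groups, 2 were called higher and 0 lower at 160 mg/kg. The next paragraph gives the shares of all probe sets called. Of 10 granule lineage markers on the array, 8 or 9 exceeded the 40th percentile on every array, but their levels were not the same in all groups. Of the 9 tested, limma called 2 higher and 0 lower in 160 than in 40 mg/kg resistant tumours. Against vehicle, 1 was higher and 1 lower at 40 mg/kg, and 1 was higher and 0 lower at 160 mg/kg.

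Among the resistant tumours, Shisal2b and Sptssb, which were chosen for large differences there, had the largest of any tested probe set, in opposite directions. Shisal2b and Spon2 were higher, and Sptssb and Nexmif lower, in every 160 mg/kg resistant tumour than in every 40 mg/kg resistant tumour. Hsd11b2 was also higher in every 160 mg/kg resistant tumour, but by 0.1 signal units at the nearest pair. Sbspon overlapped between the dose groups and was lower in both than in every untimed vehicle tumour. For scale, 2.13% of all tested probe sets were called between the resistant groups at a limma adjusted p under 0.05 (747 probe sets), 7.12% between 40 mg/kg resistant and vehicle tumours and 1.01% between 160 mg/kg resistant and vehicle tumours. Nothing is read from the members against these shares, or from the ranks given below, because these arrays chose the members.

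**Figure D1:**
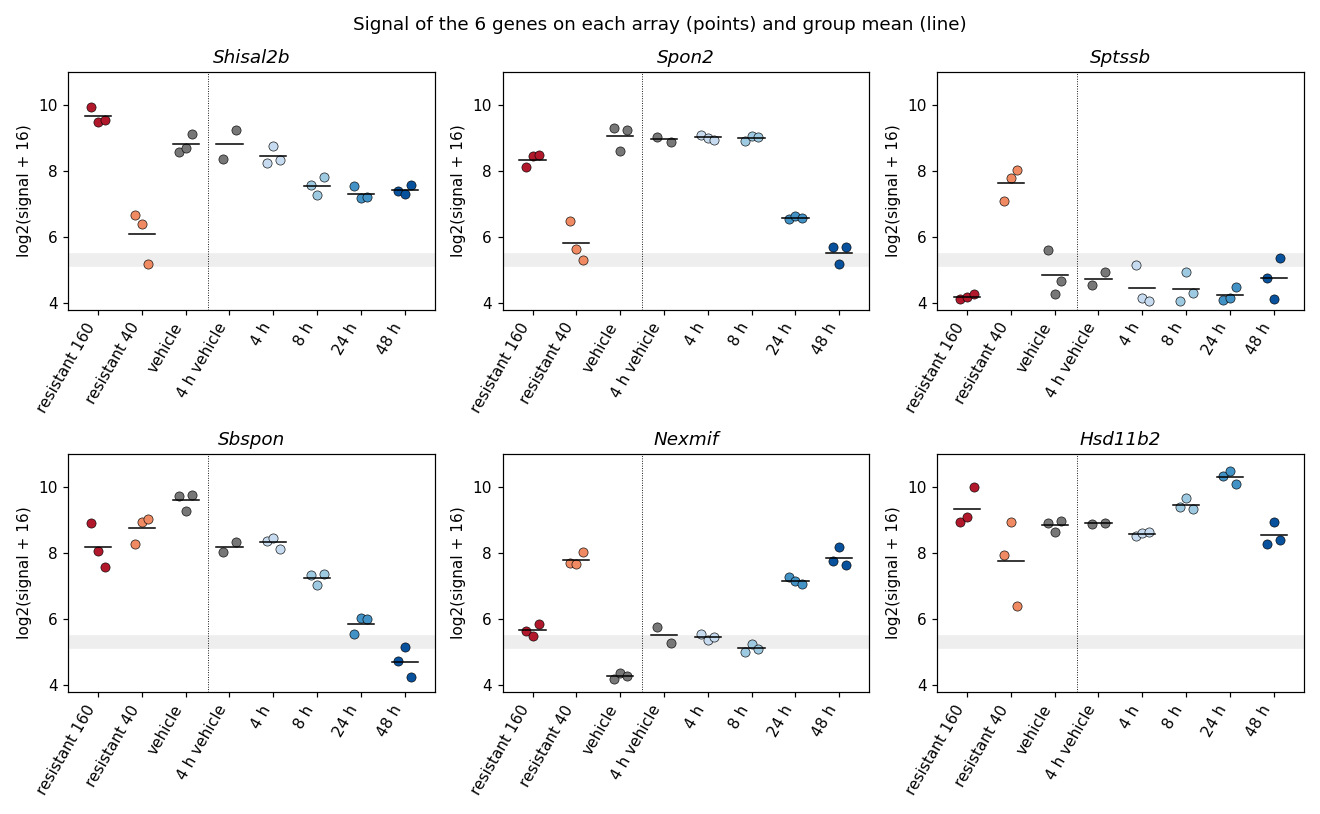
Log2 of MAS5 signal plus 16 for the 6 genes on each of the 23 arrays, by group, with points for arrays, lines for group means and a grey band for the range of the arrays' 40th percentiles; a dotted line sets the resistant and untimed vehicle groups off from the time course. Shisal2b and Spon2 are higher, and Sptssb and Nexmif lower, in the 160 than in the 40 mg/kg resistant group, while Sbspon overlaps between them. Spon2 lies below untimed vehicle in both dose groups.

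Shisal2b (probe set 1430977_at) had signals of 974.8, 700.3 and 725.4 in 160 mg/kg resistant tumours and 85.2, 68.4 and 20.3 in 40 mg/kg resistant tumours, against 368.0, 403.9 and 540.1 in vehicle tumours. The groups did not overlap, and vehicle lay between the dose groups. The log2 difference between 160 and 40 mg/kg resistant tumours was 3.58, rank 1 by size among the 35066 tested probe sets. It was 0.85 (rank 1091) for 160 mg/kg resistant minus vehicle and -2.73 (rank 25) for 40 mg/kg resistant minus vehicle.

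Spon2 (1417860_a_at) had signals of 261.4, 331.3 and 337.6 in 160 mg/kg resistant tumours and 73.8, 33.9 and 23.2 in 40 mg/kg resistant tumours, against 614.7, 371.9 and 593.5 in vehicle tumours. Both dose groups lay below every vehicle tumour, the 40 mg/kg group far more so. The log2 difference was 2.53 between 160 and 40 mg/kg resistant tumours (rank 11), -0.71 for 160 mg/kg resistant minus vehicle (rank 1948) and -3.24 for 40 mg/kg resistant minus vehicle (rank 7). Its other probe set, 1458175_at, had the same order at lower signal, with means of 28.3 ± 6.89 and 8.1 ± 9.89 in 160 and 40 mg/kg resistant tumours against 43.5 ± 8.24 in vehicle tumours (SD, n = 3 each).

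Sptssb (1417803_at) had signals of 1.5, 2.3 and 3.2 in 160 mg/kg resistant tumours and 119.0, 206.3 and 244.8 in 40 mg/kg resistant tumours, against 32.8, 3.3 and 9.7 in vehicle tumours. It exceeded the array's 40th percentile in all 3 of the 40 mg/kg resistant tumours, in 1 vehicle tumour and on none of the other 19 arrays, so it entered the tests only through arrays that chose it. Its log2 difference was -3.44 between 160 and 40 mg/kg resistant tumours (rank 2), 2.78 for 40 mg/kg resistant minus vehicle (rank 23) and -0.66 for 160 mg/kg resistant minus vehicle (rank 2455), where both groups are near the bottom of the scale. The second probe set, 1417802_at, gave 54.1, 39.8 and 58.5 in 40 mg/kg resistant tumours and lay below the 40th percentile in every 160 mg/kg resistant and vehicle tumour.

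Nexmif (1440910_at) had signals of 34.3, 29.2 and 42.3 in 160 mg/kg resistant tumours and 192.2, 186.7 and 244.6 in 40 mg/kg resistant tumours, against 2.1, 4.8 and 3.5 in vehicle tumours. The resistant groups and untimed vehicle did not overlap, and no untimed vehicle tumour exceeded its array's 40th percentile. Both 4 h vehicle tumours did (38.5 and 23.1), and their signals overlapped those of the 160 mg/kg resistant tumours. The log2 difference was -2.12 between 160 and 40 mg/kg resistant tumours (rank 29), 1.39 for 160 mg/kg resistant minus vehicle (rank 165) and 3.52 for 40 mg/kg resistant minus vehicle (rank 3). Of its 3 other probe sets, 1457046_s_at followed it over the 23 arrays with r = 0.90 and 1419968_at with r = 0.64. The remaining 1419969_at exceeded the 40th percentile on 0 of 23 arrays, did not enter the tests and had r = 0.01.

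Sbspon (1457429_s_at, a probe set that can match more than a single transcript) had signals of 460.9, 251.4 and 175.2 in 160 mg/kg resistant tumours and 296.7, 472.1 and 510.1 in 40 mg/kg resistant tumours, against 838.9, 609.9 and 851.7 in vehicle tumours. The label that it separates the dose groups did not hold, with a log2 difference of -0.57 (rank 3411) and overlapping values. It separated both groups from untimed vehicle, by -1.42 for 160 mg/kg resistant minus vehicle (rank 154) and -0.84 for 40 mg/kg resistant minus vehicle (rank 2040). The other probe set, 1456335_at, had the same order of these groups (r = 0.95 over 23 arrays). The separation did not hold for the 4 h vehicle tumours, whose Sbspon signals of 245.0 and 306.8 overlapped those of both resistant groups.

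Hsd11b2 (1416761_at) had signals of 474.5, 529.6 and 1008.1 in 160 mg/kg resistant tumours and 231.0, 474.4 and 69.1 in 40 mg/kg resistant tumours, against 464.6, 386.0 and 485.9 in vehicle tumours. Each dose group overlapped vehicle, and the spread within each was wide, with means of 671 ± 293 in 160 mg/kg and 258 ± 204 in 40 mg/kg resistant tumours against 446 ± 52.6 in vehicle tumours (SD, n = 3 each). The log2 difference was 1.58 between 160 and 40 mg/kg resistant tumours (rank 113), 0.50 for 160 mg/kg resistant minus vehicle (rank 4795) and -1.08 for 40 mg/kg resistant minus vehicle (rank 1039).

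Summed signals of markers of other cells differed among the resistant and vehicle groups. The summed signal of 14 macrophage markers was 3156, 7577 and 12366 in 160 mg/kg resistant tumours and 13239, 11164 and 9110 in 40 mg/kg resistant tumours, against 1830, 2897 and 2976 in vehicle tumours. The sum of 12 fibroblast markers was 5310, 13736 and 24474 in 160 mg/kg resistant tumours and 18185, 21408 and 17487 in 40 mg/kg resistant tumours, against 3823, 9164 and 7758 in vehicle tumours. The first 160 mg/kg resistant tumour was thus nearest to vehicle in both lists. Between the dose groups, limma called 0 of 14 macrophage and 0 of 12 fibroblast markers, beside 2.13% of all probe sets. Against vehicle, 11 macrophage markers were higher at 40 mg/kg and 6 at 160 mg/kg, with 0 lower. Of the fibroblast markers, 5 were higher and 1 lower at 40 mg/kg, and 1 higher and 0 lower at 160 mg/kg. Of all probe sets, 7.12% (40 mg/kg) and 1.01% (160 mg/kg) were called there. The sum of 6 astrocyte markers was 2642, 1281 and 998 in 160 mg/kg resistant tumours and 390, 936 and 262 in 40 mg/kg resistant tumours, against 1631, 1221 and 1563 in vehicle tumours. S100b and Slc1a3 carried this sum and were the 2 of 6 markers called between the dose groups, while Gfap, Aqp4, Aldh1l1 and Aldoc averaged 56.4 or less in each of these 3 groups. In sensitive tumours S100b averaged 37.6 ± 2.06 at 48 h (n = 3), against 1151 ± 61.3 in 4 h vehicle tumours (n = 2, SD). Its log2 difference was -4.44 (limma adjusted p = 2.1e-08), while 1 of the 6 markers was called higher, so the list did not move together. Within the 40 mg/kg resistant tumours the order of the astrocyte sum was that of Hsd11b2, and within the 160 mg/kg resistant tumours the opposite. The sum of 6 adipocyte markers was 977, 632 and 5832 in 160 mg/kg resistant tumours and 249, 347 and 504 in 40 mg/kg resistant tumours, against 122, 263 and 227 in vehicle tumours, without overlap between the dose groups. None of its 5 tested markers was called between the dose groups, 2 had an unadjusted p under 0.05, and 1 (Fabp4) was called higher in 160 mg/kg resistant than in vehicle tumours. Fabp4 averaged 2132 ± 2485 in 160 mg/kg resistant tumours and 151 ± 88.8 in vehicle tumours (SD, n = 3 each), a wide spread. In bulk tumours, fewer cells of a type and less RNA per cell cannot be told apart, and the part of other cells in the members' differences was not tested.

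**Figure D2:**
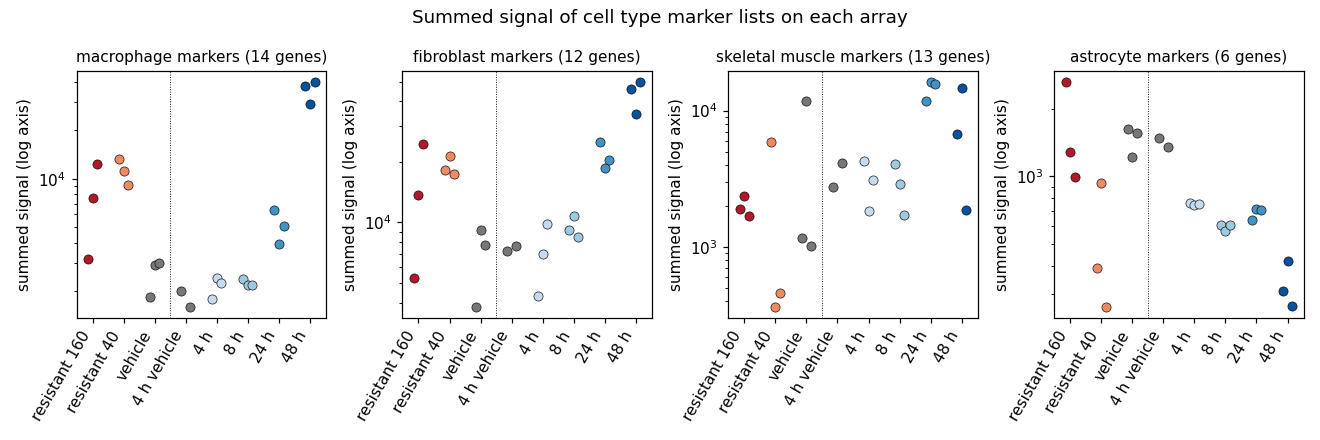
Summed MAS5 signal (log axis) of marker lists of cell types on each array, by group. Macrophage sums reach 29104 to 39914 in the 48 h tumours and 9110 to 13239 in the 40 mg/kg resistant tumours, against 1830 to 2976 in untimed vehicle tumours.

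The treated short-term arrays took no part in the rule that chose the members. The members were chosen with earlier results of these data known, however, so the p-values below may not be independent of the choice. Sensitive tumours were tested against the 4 h vehicle tumours and between successive times, with adjustment over all 35066 probe sets. No vehicle tumour is labelled as collected at 8, 24 or 48 h, so drug and time of collection cannot be told apart there. Spon2 and Sbspon fell and Nexmif rose by 24 h and again between 24 and 48 h. Shisal2b was the only member called at 8 h, when it fell. Hsd11b2 rose at 24 h and fell again by 48 h. Sptssb was below the 40th percentile on all 14 short-term arrays, so its tests could show no fall, and it is left out of the counts.

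**Figure D3:**
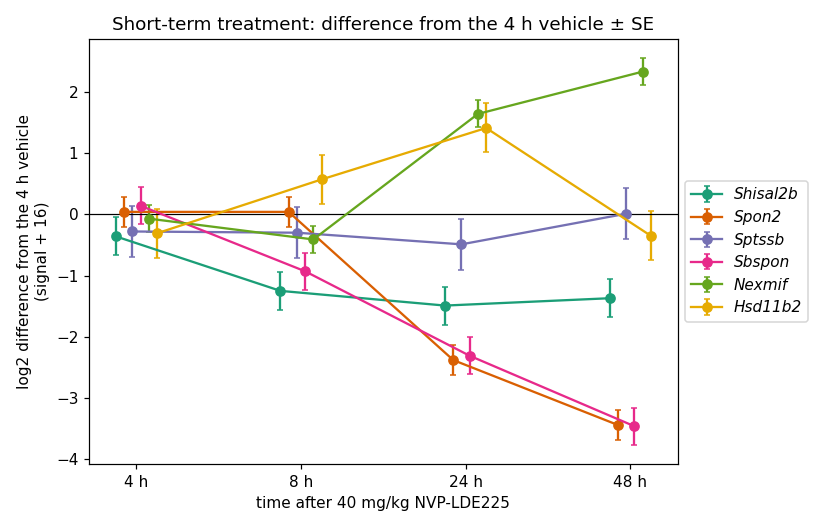
Log2 difference (± SE, limma) of each gene from the 4 h vehicle tumours at 4, 8, 24 and 48 h after 40 mg/kg of NVP-LDE225. Spon2 and Sbspon reach -3.44 and -3.46 and Nexmif 2.33 at 48 h, while Hsd11b2 peaks at 1.41 at 24 h.

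At 4 h, 0 of the other 5 genes were called by limma, beside 0.285% of all probe sets, and 0 had an unadjusted p under 0.05, beside 6.6% of all. At 8 h, 1 of 5 was called lower (Shisal2b) and 0 higher, beside 1.8% of all probe sets called lower. At 24 h, 3 of 5 were lower and 2 of 5 higher, beside 9.58% and 12.4% of all probe sets. At 48 h, 3 of 5 were lower and 1 of 5 higher, beside 15.5% and 18.1%. Between 4 and 8 h, 0 of 5 were called by limma, beside 0.485% of all probe sets in either direction, and 3 had an unadjusted p under 0.05, beside 8.51% of all. Between 8 and 24 h, 2 of 5 fell and 1 rose, beside 7.14% and 6.86%. Between 24 and 48 h, 3 of 5 fell and 1 rose, beside 10.8% and 9.73%. The comparisons with 4 h vehicle share the same 2 control arrays. The log2 ratio of actin 3′ to 5′ signal, a sign of RNA quality, was 1.83, 1.72 and 1.41 at 24 h and 0.95, 0.84 and 0.96 at 48 h, against 1.11 and 1.25 in 4 h vehicle tumours. The part of RNA quality in the 24 h and 48 h values was not tested.

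Spon2, a secreted matrix protein, had signals of 511.3 and 458.5 in 4 h vehicle tumours, 532.2, 498.5 and 471.0 at 4 h, 468.7, 520.9 and 506.1 at 8 h, 78.0, 83.0 and 79.7 at 24 h and 35.6, 19.9 and 36.5 at 48 h. It was level with vehicle to 8 h and did not overlap it afterwards. Its log2 difference from 4 h vehicle was 0.04 at 8 h (adjusted p = 0.98), -2.38 ± 0.25 (SE) at 24 h (adjusted p = 1.2e-07) and -3.44 ± 0.25 at 48 h (adjusted p = 1.7e-10). Between 8 and 24 h it fell by 2.42 (adjusted p = 2.3e-08), and between 24 and 48 h by 1.06 (adjusted p = 0.0011). The second probe set fell by 1.14 at 48 h (adjusted p = 0.016) and had -0.73 at 24 h (adjusted p = 0.16).

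Sbspon had signals of 245.0 and 306.8 in 4 h vehicle tumours, 316.2, 337.4 and 263.2 at 4 h, 146.3, 114.3 and 149.7 at 8 h, 30.5, 50.0 and 49.0 at 24 h and 10.7, 19.8 and 3.1 at 48 h. Every tumour from 8 h on lay below every 4 h vehicle tumour, and at 48 h none exceeded its array's 40th percentile. The log2 difference from 4 h vehicle was -0.93 at 8 h (adjusted p = 0.095), -2.31 ± 0.30 at 24 h (adjusted p = 2.9e-06) and -3.46 ± 0.30 at 48 h (adjusted p = 2.7e-09). It fell by 1.38 between 8 and 24 h (adjusted p = 0.00086) and by 1.15 between 24 and 48 h (adjusted p = 0.0029, or 0.079 with an offset of 64). The second probe set fell by 2.04 at 24 h (adjusted p = 1e-05) and by 2.23 at 48 h (adjusted p = 1.2e-06).

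Nexmif had signals of 38.5 and 23.1 in 4 h vehicle tumours, 31.0, 25.1 and 28.2 at 4 h, 16.4, 22.1 and 18.2 at 8 h, 139.9, 126.9 and 118.0 at 24 h and 201.7, 274.6 and 183.2 at 48 h. It was near the low end of the scale to 8 h and high in every tumour from 24 h. The log2 difference from 4 h vehicle was -0.41 at 8 h (adjusted p = 0.43), 1.64 ± 0.22 at 24 h (adjusted p = 4.8e-06) and 2.33 ± 0.22 at 48 h (adjusted p = 1e-08). Between 8 and 24 h it rose by 2.05 (adjusted p = 4.8e-08). Between 24 and 48 h it rose by 0.69 (adjusted p = 0.013), a call lost without 24 h replicate 3 (adjusted p = 0.052) or 48 h replicate 3 (adjusted p = 0.087). Probe set 1457046_s_at rose by 1.34 at 48 h (adjusted p = 0.001) and had 0.75 at 24 h (adjusted p = 0.077).

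Shisal2b had signals of 315.6 and 587.5 in 4 h vehicle tumours, 288.7, 418.6 and 303.0 at 4 h, 173.9, 138.5 and 209.3 at 8 h, 169.6, 129.6 and 132.7 at 24 h and 153.0, 142.7 and 176.5 at 48 h. From 8 h on, every tumour lay below both vehicle tumours. The log2 difference from 4 h vehicle was -1.25 ± 0.31 at 8 h (adjusted p = 0.021), -1.49 ± 0.31 at 24 h (adjusted p = 0.00084) and -1.37 ± 0.31 at 48 h (adjusted p = 0.00098). These calls rested on 4 h vehicle replicate 2, without which the differences were -0.82 (adjusted p = 0.4), -1.06 (adjusted p = 0.057) and -0.94 (adjusted p = 0.067). The 8 h call was also lost without 8 h replicate 1 (adjusted p = 0.059) or 8 h replicate 2 (adjusted p = 0.1). Against the untimed vehicle tumours, which chose the member, the differences at 24 and 48 h were -1.49 and -1.37.

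Hsd11b2 had signals of 458.6 and 464.0 in 4 h vehicle tumours, 351.5, 374.4 and 381.9 at 4 h, 656.4, 794.0 and 637.5 at 8 h, 1289.2, 1433.0 and 1072.0 at 24 h and 297.6, 479.7 and 318.9 at 48 h. The 24 h tumours were the highest of all 23, and the 48 h tumours overlapped vehicle. The log2 difference from 4 h vehicle was 0.57 at 8 h (adjusted p = 0.6), 1.41 ± 0.40 at 24 h (adjusted p = 0.013) and -0.35 at 48 h (adjusted p = 0.56). The 24 h call was lost without 4 h vehicle replicate 1 (adjusted p = 0.077) or replicate 2 (adjusted p = 0.075). Between 24 and 48 h it fell by 1.77 ± 0.36 (adjusted p = 0.00097). The log2 actin ratio was 1.83, 1.72 and 1.41 in these 24 h tumours and 0.95, 0.84 and 0.96 in the 48 h tumours. In the 40 mg/kg resistant tumours it was 1.46, 0.89 and 0.91, with Hsd11b2 signals of 231.0, 474.4 and 69.1. The part of RNA quality in the Hsd11b2 signal was not tested. At 24 h the summed signal of 13 skeletal muscle markers was 11652, 16171 and 15757, against 2732 and 4136 in 4 h vehicle tumours, with 2 of 13 markers called higher and 0 lower. The sum of 10 granule lineage markers was 18535, 21311 and 20185 at 24 h, against 10849 and 10427, with 5 of 9 tested called higher and 0 lower. Of the macrophage markers, 9 of 14 were called higher at 24 h, and the part of any of these cells in the Hsd11b2 signal was not tested.

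Sptssb stayed below the 40th percentile on every short-term array, with signals of 7.2 and 14.6 in 4 h vehicle tumours and of 0.7 to 25.5 in treated tumours. Its log2 differences from 4 h vehicle, between -0.49 at 24 h and 0.01 at 48 h, are of signals at the bottom of the scale. The second probe set exceeded that level on 1 short-term array, a 4 h tumour.

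The identifier numbers in the sample titles form 3 runs, which the labels do not call a batch. All resistant, untimed vehicle and 48 h arrays and 2 of the 24 h arrays lie in the first run, so the comparisons among the resistant and untimed vehicle arrays are within it. The 4 h and 8 h arrays, 1 array of the 24 h group and the second 4 h vehicle array lie in the second run, and the first 4 h vehicle array is alone in the third. Within the second run, the 24 h tumour minus the 4 h vehicle tumour gave -1.7 for Shisal2b, -2.34 for Spon2, -2.8 for Sbspon, 2.0 for Nexmif and 1.44 for Hsd11b2. No run holds both 48 h and 4 h vehicle arrays. With the run as a block, Spon2, Sbspon and Nexmif kept their calls at 24 and 48 h, while Shisal2b at 48 h (adjusted p = 0.073) and Hsd11b2 at 24 h (adjusted p = 0.2) did not pass.

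The vehicle groups themselves did not overlap in 2 of the 6 genes, while 25.2% of all tested probe sets did not overlap between them. Sbspon was higher in every untimed vehicle tumour than in both 4 h vehicle tumours (log2 difference 1.42), and Nexmif lower (-1.25). Against the untimed vehicle tumours, Sbspon had -3.73 at 24 h and -4.88 at 48 h, and Nexmif had 2.89 and 3.58, each larger than against 4 h vehicle. The time of collection, the identifier run and the choice of Sbspon and Nexmif on the untimed vehicle arrays cannot be told apart here.

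Set beside the 48 h tumours, the 40 mg/kg resistant tumours had like signals for Spon2 and Nexmif. The log2 difference of 40 mg/kg resistant minus 48 h tumours was 0.28 for Spon2, -0.07 for Nexmif and -0.78 for Hsd11b2, all with overlapping values. It was -1.35 for Shisal2b, 2.88 for Sptssb and 4.03 for Sbspon, with no overlap. The 160 mg/kg resistant tumours minus 48 h tumours gave 2.22 for Shisal2b, 2.82 for Spon2, 3.46 for Sbspon and -2.19 for Nexmif without overlap, and -0.55 for Sptssb and 0.80 for Hsd11b2 with overlap. These are descriptions, because the resistant arrays chose the members. In the 48 h tumours, the macrophage sum was 37918, 29104 and 39914, against 2021 and 1603 in 4 h vehicle tumours, and all 14 of its markers were called higher. The fibroblast sum was 45668, 34401 and 49745 at 48 h, against 7254 and 7679 in 4 h vehicle tumours. The part of these cells in the 48 h values was not tested.

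**Figure D4:**
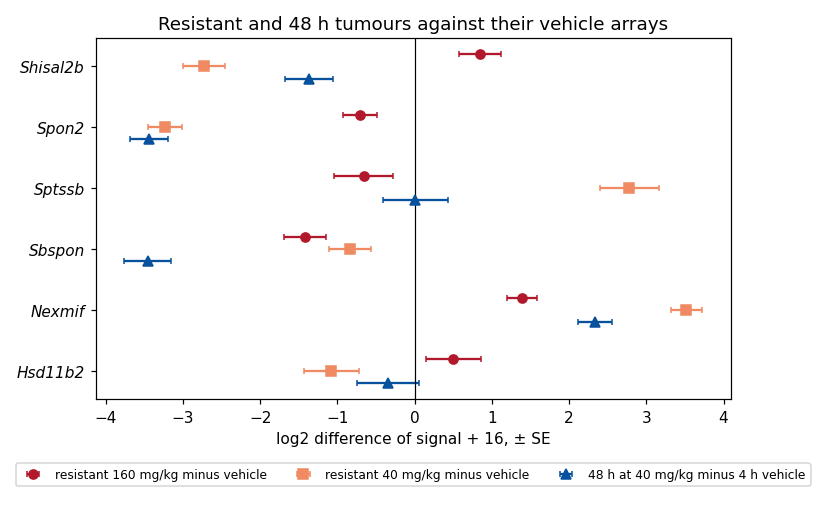
Log2 difference (± SE of the fit) of the 160 and 40 mg/kg resistant tumours from the untimed vehicle tumours, and of the 48 h tumours from the 4 h vehicle tumours, for each of the 6 genes. The 40 mg/kg resistant and 48 h points lie close for Spon2 (-3.24 and -3.44) and far apart for Sbspon (-0.84 and -3.46) and Sptssb (2.78 and 0.01).

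Other genes of the members' families and pathways were taken from fixed lists, counting in the resistant comparisons the genes without the members. The 48 h counts and medians of these lists include the members, Sptssb among them. The shares of all probe sets called there, in either direction, were the 2.13%, 7.12% and 1.01% given above. In sphingolipid synthesis, 1 of 22 tested genes was called higher and 0 lower in 160 than in 40 mg/kg resistant tumours. In that list 0 of 22 were called by limma in either dose group against vehicle, with 4 (40 mg/kg) and 2 (160 mg/kg) at an unadjusted p under 0.05. Over all probe sets tested, 19.5% and 13.6% had such a p in these comparisons, and 12.1% between the resistant groups. At 48 h against 4 h vehicle, 4 of 23 rose and 1 fell, beside 18.1% and 15.5% of all probe sets, among them Asah1, acid ceramidase (1196 ± 204 in 48 h tumours, n = 3, and 591 ± 59.3 in 4 h vehicle tumours, n = 2, SD, log2 difference 0.99, adjusted p = 5.6e-06). The median log2 difference of the list was 0.27 at 48 h and -0.04 between the resistant groups, beside 0.04 and -0.02 over all probe sets tested.

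In glucocorticoid handling and response, 0 of 19 genes were called higher and 1 lower in 160 than in 40 mg/kg resistant tumours (list median 0.18, beside -0.02 over all). Against vehicle, 2 of 19 were higher and 2 lower in 40 mg/kg resistant tumours and 1 higher and 0 lower in 160 mg/kg resistant tumours. Errfi1, a feedback inhibitor of the EGF receptor, rose to 550.2 ± 19.0 in 40 mg/kg resistant tumours, against 273 ± 8.85 in vehicle tumours (SD, n = 3 each, log2 difference 0.97, adjusted p = 0.00083). Cdkn1c, a cyclin-dependent kinase inhibitor, fell by 1.11 there (adjusted p = 0.00031). At 48 h, 7 of 20 rose and 5 fell, beside 18.1% and 15.5% of all probe sets (list median 0.05), with Sgk1, a glucocorticoid-induced kinase, up by 2.98 (adjusted p = 2.1e-10), Glul, glutamine synthetase, up by 1.27 (adjusted p = 1.4e-06) and Fkbp4, a co-chaperone of steroid receptors, down by 1.04 (adjusted p = 1.3e-06).

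Among spondin, R-spondin and thrombospondin repeat proteins, 1 of 26 genes was higher and 2 lower in 160 than in 40 mg/kg resistant tumours (list median -0.27). Rspo1, a secreted enhancer of Wnt signalling, averaged 382 ± 114 in 160 mg/kg and 729 ± 62.8 in 40 mg/kg resistant tumours (SD, n = 3 each, log2 difference -0.94, adjusted p = 0.003), and it fell by 1.27 in 160 mg/kg resistant tumours against vehicle (adjusted p = 0.0012). Against vehicle, 5 of 26 rose and 1 fell in 40 mg/kg resistant tumours, and 1 rose and 1 fell in 160 mg/kg resistant tumours. In 40 mg/kg resistant tumours the matrix glycoprotein Thbs1 rose by 2.65 (adjusted p = 0.00047), Spon1, F-spondin, by 1.52 (adjusted p = 0.0005), and Adamtsl1, a secreted matrix protein, fell by 0.87 (adjusted p = 0.0015). At 48 h, 10 of 28 rose and 3 fell, beside 18.1% and 15.5% (list median 0.48), and the 3 that fell were Rspo1 (-3.54, adjusted p = 2.9e-12) and the members Spon2 and Sbspon.

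In the shisa family, 0 of 7 genes were called by limma between the resistant groups, with 4 at an unadjusted p under 0.05, beside 12.1% of all probe sets (list median -0.45). Shisa5, an inducer of apoptosis, was among 2 of 7 that rose in 40 mg/kg resistant tumours against vehicle (0.86, adjusted p = 0.0026), and in 160 mg/kg resistant tumours 0 of 7 were called by limma, with 1 at an unadjusted p under 0.05, beside 13.6% of all. At 48 h, 3 of 8 rose and 3 fell, beside 18.1% and 15.5%, with Shisa9 by 2.40 (adjusted p = 2.1e-08) and Shisa5 by 1.63 (adjusted p = 3.8e-07) among those that rose and Shisal2b among those that fell.

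In neurite adhesion and migration, 3 of 17 genes were higher and 1 lower in 160 than in 40 mg/kg resistant tumours (list median 0.05). Dcc, a netrin receptor, averaged 1759 ± 719.5 in 160 mg/kg and 524 ± 529 in 40 mg/kg resistant tumours (SD, n = 3 each, log2 difference 2.08, adjusted p = 0.0015). In 40 mg/kg resistant tumours 0 of 17 rose and 4 fell against vehicle, Dcc by 1.68 (adjusted p = 0.0047), and in 160 mg/kg resistant tumours 0 of 17 were called by limma, with 5 at an unadjusted p under 0.05, beside 13.6% of all. At 48 h, 10 of 18 rose and 1 fell, beside 18.1% and 15.5% (list median 1.17, beside 0.04 over all). The adhesion molecules L1cam rose by 4.28 (adjusted p = 1.3e-08) and Nfasc by 1.95 (adjusted p = 2.6e-07). The member Nexmif, at 2.33, is counted among the 10. The 48 h counts of all 5 lists stand beside the rise of the macrophage and fibroblast markers, whose part in them was not tested.

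Calls in the resistant comparisons depended on the spread borrowed from the other groups. With only the compared arrays in the fit, the probe sets called between the resistant groups numbered 19 in place of 747, those between 160 mg/kg resistant and vehicle tumours 8 in place of 355, and those between 40 mg/kg resistant and vehicle tumours 1294 in place of 2495. In that fit Rspo1 (adjusted p = 0.25 between the resistant groups and 0.093 for 160 mg/kg resistant against vehicle) and Dcc (adjusted p = 0.36 between the resistant groups and 0.094 for 40 mg/kg resistant against vehicle) were no longer called, while Errfi1, Cdkn1c, Thbs1, Spon1, Adamtsl1 and Shisa5 in 40 mg/kg resistant tumours against vehicle were. The genes named from these lists are those whose calls no left-out array ended.

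Over the 23 arrays, the 3 genes most like each member were found by Pearson's r of log2 signal among 14974 other genes. The arrays share their groups, so a high r describes the group means. For Shisal2b they were Cdk6, a cell cycle kinase (r = 0.88), Cerk, ceramide kinase (r = 0.88), and the secreted protein Cbln4 (r = 0.86). Cdk6 averaged 2183 in 160 mg/kg and 692 in 40 mg/kg resistant tumours, against 1797 in vehicle tumours, and over the 14 short-term arrays its r with Shisal2b was 0.85. For Sptssb they were Ccnd3, cyclin D3 (r = 0.88), Itpk1, an inositol phosphate kinase (r = 0.87), and Ier2, an immediate early gene (r = 0.86). Ccnd3 averaged 269 in 160 mg/kg and 1498 in 40 mg/kg resistant tumours, against 409 in vehicle tumours, and its r with Sptssb over the short-term arrays, where Sptssb was near the bottom of the scale, was 0.18. For Spon2 they were Brd8, Pkm (a pyruvate kinase) and Gxylt1 (r = 0.92 each), with r of 0.98, 0.96 and 0.94 over the short-term arrays.

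For Sbspon the most alike were Cnot6l, Tiam1, an activator of Rac, and Rbmxl1 (r = 0.96 each). Tiam1 averaged 1138 in 160 mg/kg and 1000.1 in 40 mg/kg resistant tumours, against 1499 in vehicle tumours, and 83.3 in 48 h tumours. For Nexmif they were Cpeb4, a regulator of translation (r = 0.93), Pcdhb3, a protocadherin (r = 0.89), and Tfpi, an inhibitor of coagulation (r = 0.89). For Hsd11b2 they were the Wnt receptor Fzd7 (r = 0.87), the matrix protein Smoc1 (r = 0.85) and the glutamate transporter Slc1a3 (r = 0.83), which is also among the astrocyte markers. Among the members themselves, Spon2 and Nexmif were the most opposed, with r = -0.95 over 23 arrays and -0.98 over the 14 short-term arrays. Spon2 and Sbspon had r = 0.94 over the short-term arrays and 0.56 over all 23. Shisal2b and Sptssb had r = -0.65 over all arrays and 0.12 over the short-term arrays.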

How the data were processed

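Gene expression was measured on 23 arrays of medulloblastoma allografts. Per the submitters' processing notes the authors used MAS5, and the deposited values are linear signal intensity, 1 per probe set, with a trimmed mean of 149.3 to 149.4 on every array. The genome build behind the array's annotation is not given in the sources used here, and the promoter coordinates are those of RefSeq's table on GRCm38.p6. Samples were grouped by their description, and all columns were mapped. Of the probe sets, 34958 had 1 gene symbol in the platform annotation, 932 several and 9211 none, and 64 control probe sets were left out. Group means (8 groups, all arrays in 1 model) of log2(signal + 16) were fitted with limma 3.58.1 (eBayes with trend) in R 4.3.3, with data.table version 1.17.8. Two-sided p-values were adjusted with the Benjamini-Hochberg method over 35066 tested probe sets within each comparison, at a threshold of 0.05. The fit was tested on simulated data. The members and the gene lists were chosen with earlier results of these data known. Named genes are the members, the 3 genes most correlated with each, up to 3 called genes with the smallest p from each list and comparison, and Gli1 as a readout. From the family and pathway lists, in the resistant comparisons, only genes whose call no left-out array ended are named, a restriction made after their values were seen. Single cell type markers are also named, outside this rule, and the dependence of their calls on single arrays is not given. The alternatives were offsets of 1 and 64, no filter, eBayes without trend, quantile normalization, a fit of only the compared arrays, the untimed or all vehicle arrays as control, a block for the replicate number or for the identifier run, and omission of single arrays.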

Additional observations from a re-analysis of the deposited data

Results flagged for a closer look

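Shisal2b moved in opposite directions in the resistant groups: every 160 mg/kg resistant tumour lay above, and every 40 mg/kg resistant tumour below, every vehicle tumour, and the log2 differences from vehicle differed by 3.58. For Sptssb the dose groups' log2 differences from vehicle differed by -3.44. All 3 of its 160 mg/kg resistant values and 2 of 3 vehicle values were below the 40th percentile, and the nearest pair (3.2 in a 160 mg/kg resistant and 3.3 in a vehicle tumour) differed by 0.1 signal units, so no fall against vehicle is read from them. Neither gene was tested, because these arrays chose them.

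Nexmif lay below both 4 h vehicle tumours in every 8 h tumour and above them in every 24 h and 48 h tumour. Its 8 h signals (16.4, 22.1 and 18.2) were all below the 40th percentile, the highest was near the lower vehicle signal of 23.1, and the 8 h difference from vehicle was not called (-0.41, adjusted p = 0.43). The 8 h minus 24 h difference was -2.05, which the comparison of 24 h with 8 h tested (adjusted p = 4.8e-08 by limma), and the 8 h minus 48 h difference was -2.74, which was not tested. Hsd11b2 lay below both 4 h vehicle tumours in every 4 h tumour and above them in every 8 h and 24 h tumour. The 4 h minus 8 h difference was -0.88 (adjusted p = 0.47 for the comparison of 8 h with 4 h), and the 4 h minus 24 h difference was -1.72, which was not tested.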

How the results depend on the processing

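The calls of Spon2, Sbspon and Nexmif at 24 and 48 h against 4 h vehicle held under all 16 alternatives. Shisal2b at 8 h was lost under 6 of 15, among them an offset of 1 (adjusted p = 0.058), eBayes without trend (adjusted p = 0.061) and the replicate block (adjusted p = 0.051). Nexmif between 24 and 48 h was lost with an offset of 1 (adjusted p = 0.081). Calls were gained with only the compared arrays in the fit, for Sbspon (adjusted p = 0.0057) and Hsd11b2 (adjusted p = 0.015) at 8 h, for Sbspon (adjusted p = 0.001), Shisal2b (adjusted p = 0.013) and Hsd11b2 (adjusted p = 0.00046) between 4 and 8 h and for Hsd11b2 between 8 and 24 h (adjusted p = 0.00011). Sbspon was also called at 8 h against all 5 vehicle arrays (adjusted p = 0.00075) and between 4 and 8 h with an offset of 64 (adjusted p = 0.049).

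Differences that changed sign were all uncalled in the reported fit. At 4 h against vehicle, Nexmif (-0.07) gave 0.01 with quantile normalization, 0.17 with the run block and 0.68 against all 5 vehicle arrays, Sbspon (0.14) gave -0.01 with the run block and -0.71 against all 5, and Spon2 (0.04) gave -0.01 against all 5. At 8 h, against all 5, Spon2 gave -0.01 and Nexmif 0.34. At 48 h, Sptssb (0.01, from signals under the 40th percentile) gave -0.31 with an offset of 1, -0.06 with quantile normalization and against all 5, -0.29 with the replicate block, -0.43 with the run block and -0.11 against untimed vehicle, and between 4 and 8 h (-0.02) it gave 0.15 with an offset of 1. Leaving out single arrays, the 4 h differences ranged from -0.31 to 0.17 for Nexmif, -0.01 to 0.29 for Sbspon, -0.79 to 0.07 for Shisal2b and -0.03 to 0.12 for Spon2, the 8 h difference of Spon2 from -0.04 to 0.12 and the 48 h difference of Sptssb from -0.3 to 0.33. Between 4 and 8 h Sptssb ranged from -0.26 to 0.34 and Spon2 from -0.05 to 0.04, and between 8 and 24 h Sptssb from -0.38 to 0.06.

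Probe sets called at 4 h numbered 100, but 55 without trend, 187 with only the compared arrays, 25 with the run block, 368 against all 5 vehicle arrays and 30 to 69 leaving out single arrays. At 8 h they numbered 1139, but 1733 with only the compared arrays, 545 with the run block, 2367 against all 5 and 452 to 736 leaving out arrays. At 24 h (7693) and 48 h (11762) the run block gave 3085 and 5199, and leaving out arrays gave 4968 to 6662 at 24 h, the lowest without 4 h vehicle replicate 2 and 5073 without replicate 1. Between 4 and 8 h (170) the count was 94 without trend, 633 with only the compared arrays and 77 to 120 leaving out arrays. Between 8 and 24 h (4910) it was 1763 with the run block and 3266 (without 8 h replicate 3) to 3820 leaving out arrays. Between the resistant groups (747) it was 491 without trend, 19 with only the compared arrays and 532 to 1190 leaving out arrays, the highest without 40 mg/kg resistant replicate 1. For 40 mg/kg resistant against vehicle (2495) it was 1294 with only the compared arrays and 1475 to 2684 leaving out arrays, with 1475 and 1661 without vehicle replicates 1 and 3. For 160 mg/kg resistant against vehicle (355) it was 123 without trend, 8 with only the compared arrays and 45 to 950 leaving out arrays, the lowest without 160 mg/kg resistant replicate 3, the highest without replicate 1, and 86, 170 and 178 without vehicle replicates 1, 2 and 3. Apart from the alternatives with fewer arrays, the cause of these changes was not tested. Where an array of the 4 h vehicle is left out, the fit takes the spread of that group from the others.

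The arrays were fitted unpaired. Same-numbered arrays of different groups had correlations of their deviations between -0.105 and 0.0773, which show no pairing but cannot exclude it. With the replicate block, 4517 in place of 7205 probe sets were called between 24 and 48 h, and the counts of the other comparisons stayed within 1.5 times. Replicate number 4 occurs only at 48 h, so the block takes up that array.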
